A study of Mus musculus with 2 samples.

Results

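The Src family kinases and 3 of their regulators were followed in perivascular cells of the mouse aorta with and without Kai1. The 9 genes were taken by name, as the kinases Src, Fyn, Yes1, Lyn, Lck and Fgr, and the regulators Csk, Pag1 and Ptpn1. All 9 were found among the 20211 gene symbols listed, each on 1 row. RNA was sequenced from 1 WT library and 1 Kai1 KO library of primary perivascular cells (PVCs), both on a C57BL/6 background and grown in DMEM with 10% serum per the labels. The study's own culture methods give a higher serum share. KAI1, also called CD82 and encoded by Cd82, is a membrane protein of the tetraspanin family. The study asked whether Src signalling links KAI1 to the transcription of Lif in pericytes, in part with a pericyte cell line. How many mice gave the cells of each library is not given in the sources used here, and adult mice of either sex were used in the study.

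Src family kinases are cytoplasmic tyrosine kinases held at the inner face of the cell membrane by lipids at their first residues. Csk phosphorylates a tyrosine in their C-terminal tail, which folds the kinase into its closed, inactive form. Phosphatases such as PTP1B, the product of Ptpn1, remove that phosphate, and PAG1 is a raft protein that brings Csk to the membrane. Src, Fyn and Yes1 are found in most cell types, Lyn in blood cells and several others, Lck mainly in T cells and Fgr mainly in myeloid cells. The tables hold RNA levels, which do not report the phosphorylation of these proteins.

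The sites of this switch are written in the coding sequences of all 6 kinases, taken from the GENCODE M1 transcripts on build NCBI37 (mm9), the build of the authors' alignment. The last codons of each kinase are shown first, because they carry the tyrosine that Csk acts on, with its codon in capitals. It is codon 529 of 535 in Src, 528 of 534 in Fyn, 535 of 541 in Yes1, 508 of 512 in Lyn, 505 of 509 in Lck and 511 of 517 in Fgr.
Src, chr2:157295647-157295697, plus strand: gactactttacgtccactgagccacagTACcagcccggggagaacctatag
Fyn, chr10:39283728-39283778, plus strand: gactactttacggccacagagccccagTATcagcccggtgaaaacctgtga
Yes1, chr5:32987082-32987132, plus strand: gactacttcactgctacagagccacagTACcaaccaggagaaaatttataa
Lyn, chr4:3717047-3717091, plus strand: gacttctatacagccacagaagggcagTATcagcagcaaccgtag
Lck, chr4:129226042-129226086, minus strand: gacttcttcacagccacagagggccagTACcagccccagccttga
Fgr, chr4:132556208-132556258, plus strand: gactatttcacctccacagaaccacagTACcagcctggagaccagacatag

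The first 10 codons are shown because cysteines there can carry palmitate, the lipid modification that the study examined on KAI1 itself. Cysteine codons are in capitals. They were present in 5 of the 6 kinases, at codons 3 and 6 in Fyn and Fgr, 3 and 5 in Lck, and 3 in Yes1 and Lyn. The first codons of Src hold none.
Src, chr2:157282821-157282850, plus strand: atgggcagcaacaagagcaagcccaaggac
Fyn, chr10:39231556-39231585, plus strand: atgggcTGTgtgcaaTGTaaggataaagaa
Yes1, chr5:32942712-32942741, plus strand: atgggcTGCattaaaagtaaagaaaacaaa
Lyn, chr4:3665877-3665906, plus strand: atgggaTGTattaaatcaaaaaggaaagac
Lck, chr4:129235400-129235429, minus strand: atgggcTGTgtcTGCagctcaaaccctgaa
Fgr, chr4:132542078-132542107, plus strand: atgggcTGTgtgttcTGCaagaagttggag

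Although the proteins are alike, the transcripts share little exact sequence. The longest exact stretch shared by any of the 15 pairs of kinase transcripts was 23 bases, and between 0.0443% and 0.139% of the 21-base windows of a kinase transcript were found in another of the 6.

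The values are RPKM, reads scaled to transcript length and to the mapped reads of the library, so levels can be compared between genes. Reads behind them were estimated from the steps of the low RPKM values, at about 29400000 for WT and 26550000 for Kai1 KO. Intervals are 95% intervals from these reads and cover counting error only. With 1 library per genotype there is no replicate check, no p-value is given, and a difference between genotypes cannot be told apart from one between animals, cultures or library preparations. Cd82 was listed at an RPKM of 12.8 in WT and 2.62 in Kai1 KO. The Y-linked gene Ddx3y had an RPKM of 6.56 in WT and was listed at 0 in Kai1 KO, as were 3 other Y-linked genes, so sex and genotype cannot be told apart either. Of the 8 perivascular and smooth muscle markers, Pdgfrb (44.7 in WT, 31.6 in Kai1 KO), Cspg4 (15.4, 8.27) and Acta2 (3823, 2580) were present in both libraries, Rgs5 stood at 0.0630 and 0.233, and the summed RPKM of the list was 4640 and 2977. Of the 6 markers averaging 1 RPKM or more, 3 were more than 2-fold lower in Kai1 KO and 0 higher. The lower ones were Tagln, Cnn1 and Myh11. Of all genes at that mean level, 7.81% were lower and 7.98% higher. Without this filter, 4 of the 8 markers were more than 2-fold lower and 1 higher, beside 9.29% and 5.96% of all symbols. Des, at 20.3% of WT, was then also lower, and Rgs5 was the higher one, from about 7 and 24 reads.

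Fyn was the member that differed most between the genotypes. Fyn lies on chromosome 10 (39088661 to 39285187, plus strand). Its RPKM was 11.9 in WT PVCs and 4.12 in Kai1 KO PVCs, or 34.6% of WT (interval 30.7% to 39.0%). About 1180 reads stood behind the WT value and 369 behind the Kai1 KO value. The log2 ratio of Kai1 KO to WT, taken after 0.1 was added to each RPKM, was -1.51. The ratio was lower still in 3.94% of the 10068 genes kept, those averaging 1 RPKM or more over the 2 libraries.

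Src itself differed far less. Src, on chromosome 2 (157244180 to 157297598, plus strand), is the kinase whose phosphorylation the study followed. Its RPKM was 11.8 in WT and 9.19 in Kai1 KO, 78.1% of WT (71.6% to 85.1%), a log2 ratio of -0.35. A lower ratio was found in 24.7% of the genes kept. Src and Fyn thus had almost equal levels in WT PVCs, with overlapping intervals, while in Kai1 KO PVCs the level of Fyn was below that of Src. The ratio of Fyn to Src, which does not depend on how the libraries were scaled, was 1.01 in WT and 0.449 in Kai1 KO. It was 0.443 times as large in Kai1 KO, with an interval from 0.383 to 0.512.

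Lyn and Yes1 were expressed at lower levels. Lyn lies on chromosome 4 (3605262 to 3740269, plus strand) and had an RPKM of 2.93 in WT and 2.32 in Kai1 KO. This was 79.3% of WT (65.9% to 95.4%), a log2 ratio of -0.32, close to that of Src. The ratio of Lyn to Src was 0.249 in WT and 0.253 in Kai1 KO. Yes1, on chromosome 5 (32913606 to 32989430, plus strand), went the other way. Its RPKM was 1.39 in WT and 2.18 in Kai1 KO, 157% of WT (129% to 191%), a log2 ratio of 0.61. Against Src, Yes1 was 2.01 times as high in Kai1 KO as in WT (1.63 to 2.48). In WT the level of Lyn was above that of Yes1, and in Kai1 KO their intervals overlapped.

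Among the members, Lck and Fgr were near or at the floor. Lck (chromosome 4, 129225588 to 129250885, minus strand) was listed at 0 in WT, and its RPKM of 0.0200 in Kai1 KO corresponded to 1 read. Fgr (chromosome 4, 132530010 to 132557825, plus strand) was listed at 0 in both libraries. With 3 reads as the limit that a count of 0 allows, the RPKM of Fgr could be up to 0.0322 in WT and 0.0356 in Kai1 KO, and that of Lck up to 0.0511 in WT. These reads are too few to give a fold change for either gene.

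**Figure D1:**
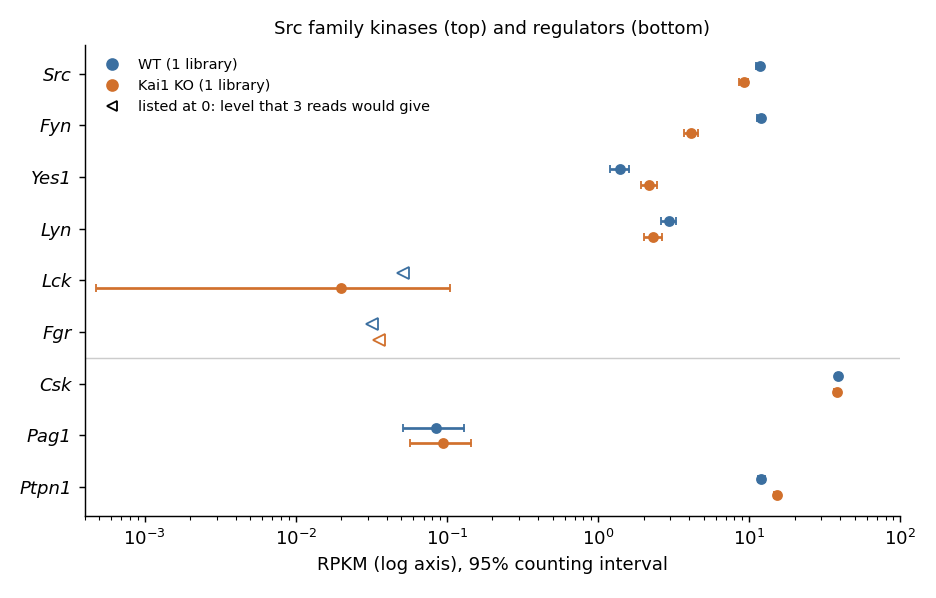
RPKM of the 9 members in the WT and the Kai1 KO library on a log axis. Points are the deposited values, bars their 95% counting intervals, and open triangles mark genes listed at 0, drawn at the level that 3 reads would give. Fyn shows the widest gap between the libraries, 11.9 against 4.12, while Csk is near 38 to 39 in both, and Lck, Fgr and Pag1 lie below 0.1 or at 0.

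Csk had the highest RPKM of all 9 members, and its RPKM as deposited was nearly equal in the 2 libraries. Csk is on chromosome 9 (57474454 to 57493460, minus strand). Its RPKM was 39.0 in WT and 38.1 in Kai1 KO, 97.6% of WT, and the interval of 92.5% to 102.9% included equality. This level was above that of 90.7% of all symbols listed in WT and of 90.2% in Kai1 KO. With both libraries scaled to Gapdh the log2 ratio of Csk was -0.53, with the median of the genes kept at -0.41.

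Ptpn1 lies on chromosome 2 (167757557 to 167804885, plus strand). Its RPKM was 12.1 in WT and 15.3 in Kai1 KO, 127% of WT (118% to 136%), a log2 ratio of 0.34. In WT, Ptpn1, Fyn and Src stood within overlapping intervals, and in Kai1 KO Ptpn1 was above Src, which was above Fyn. With both libraries scaled to Gapdh its log2 ratio was -0.16, below 0 but above the median of the genes kept, which that scaling moved from 0.08 to -0.41.

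Pag1, the raft anchor of Csk, was close to the floor. It lies on chromosome 3 (9687479 to 9833679, minus strand), and its RPKM was 0.0845 in WT and 0.0936 in Kai1 KO, about 20 reads in each library. The interval of the Kai1 KO level ran from 56.5% to 217% of WT, so that no difference was detectable at this depth and a 2-fold higher level lay within it. Lime1, a further adaptor that binds Csk, had an RPKM of 10.6 in WT and 13.1 in Kai1 KO.

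Of the 9 members, 1 (Fyn) was more than 2-fold lower and 0 were more than 2-fold higher in Kai1 KO. In the same comparison 7.81% of the 10068 genes kept passed the 2-fold line downwards and 7.98% upwards, and without the filter these shares were 9.29% and 5.96% of all 20211 symbols. The members' count is thus near the background. Of the 9 members, 6 reached a mean RPKM of 1, and Lck, Fgr and Pag1 did not. The median log2 ratio over all 9 members was 0, the value of Fgr, which was listed at 0 in both libraries. Over the 7 members above 0 in both it was -0.03, against 0.08 for all genes kept.

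**Figure D2:**
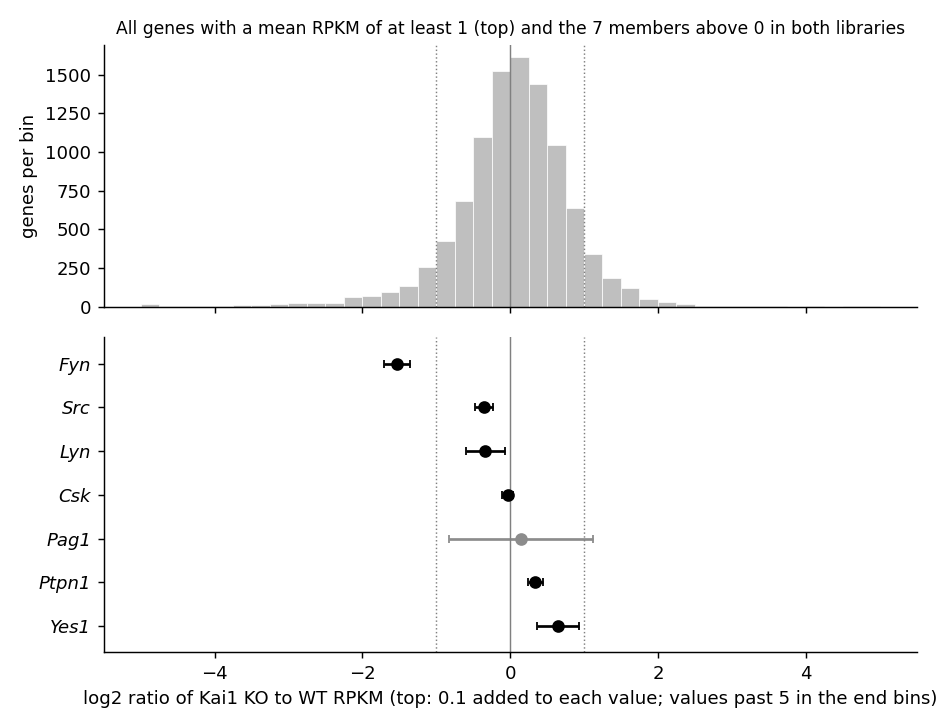
Top, histogram of the log2 ratio of Kai1 KO to WT over the 10068 genes kept, which average 1 RPKM or more. Bottom, the ratio of the 7 members above 0 in both libraries, with nothing added to the RPKM and with 95% counting intervals, with Pag1, which had a mean RPKM below 1, in grey. Dotted lines mark 2-fold, and Fyn is the member past them.

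The make-up of the kinase pool differed between the libraries. The 6 kinases summed to an RPKM of 28.0 in WT and 17.8 in Kai1 KO, 0.637 times as much (0.600 to 0.676). Fyn made up 42.5% of this sum in WT and 23.1% in Kai1 KO. The share of Src was 42.0% in WT and 51.5% in Kai1 KO, that of Lyn 10.5% and 13.0%, and that of Yes1 4.98% and 12.2%. The kinases with a cysteine codon among their first 10 codons, that is all but Src, together held 58.0% of the sum in WT and 48.5% in Kai1 KO. This group did not move as one, with Fyn at 34.6% of WT, Lyn at 79.3% and Yes1 at 157%. Without Fyn, the other kinases, Src among them, summed to 16.1 in WT and 13.7 in Kai1 KO, 0.853 times as much (0.794 to 0.916).

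**Figure D3:**
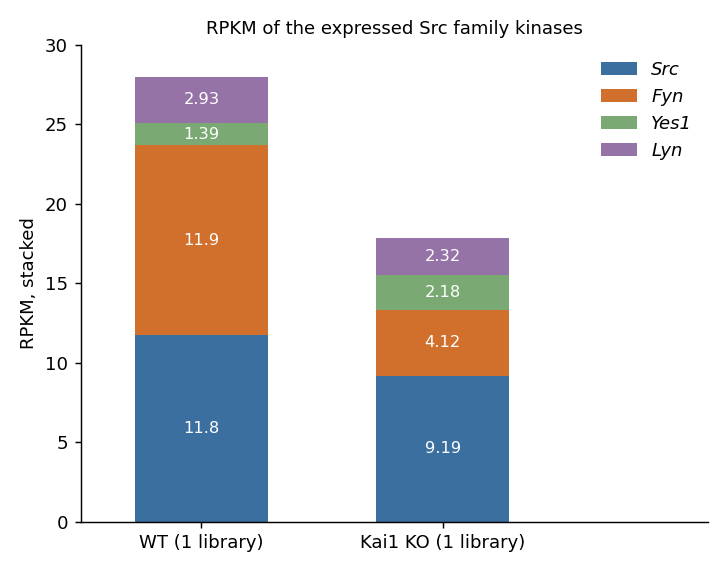
RPKM of Src, Fyn, Yes1 and Lyn stacked for each library, with the value of each kinase written on its segment. The stack is 28.0 high in WT and 17.8 in Kai1 KO, and most of the gap is in Fyn. Lck and Fgr are too low to draw.

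Set against the kinases, the RNA of the regulators Csk and Ptpn1 was higher in Kai1 KO, and Pag1 was too close to the floor for such a ratio. There was 1.39 times as much Csk as summed kinase RPKM in WT and 2.13 times as much in Kai1 KO, 1.53-fold higher (1.41 to 1.66). Ptpn1 per summed kinase RPKM was 0.431 in WT and 0.857 in Kai1 KO, 1.99-fold higher (1.81 to 2.18). Both measures share the summed kinases as their denominator, which stood at 0.637 times WT, so that a regulator of equal RPKM in the libraries would also come out higher. Csk, at 97.6% of WT, was such a case. The ratio of Csk to Ptpn1 was 3.23 in WT and 2.49 in Kai1 KO. Most of the difference in the Csk ratio came with Fyn. Against the other 5 kinases alone, Csk was at 2.42 in WT and 2.78 in Kai1 KO, 1.14-fold higher (1.05 to 1.25), and against Src alone at 3.32 and 4.14.

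Scaling the libraries differently shifted all members in the same direction. The RPKM summed over all symbols was 884463 in WT and 1238190 in Kai1 KO, so equal RPKM is not an equal share of this sum. Gapdh had an RPKM of 4238 in WT and 5997 in Kai1 KO, and scaling to it multiplies all Kai1 KO values by the same factor. The log2 ratio was then -1.99 for Fyn, -0.85 for Src, -0.80 for Lyn, -0.53 for Csk and 0.14 for Yes1, with the median of the genes kept at -0.41. The genes kept that were past 2-fold were lower in Kai1 KO in 49.5% of cases as deposited, in 62.2% with the upper quartiles made equal and in 87.0% scaled to Gapdh. Fyn was past 2-fold under each of these scalings.

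**Figure D4:**
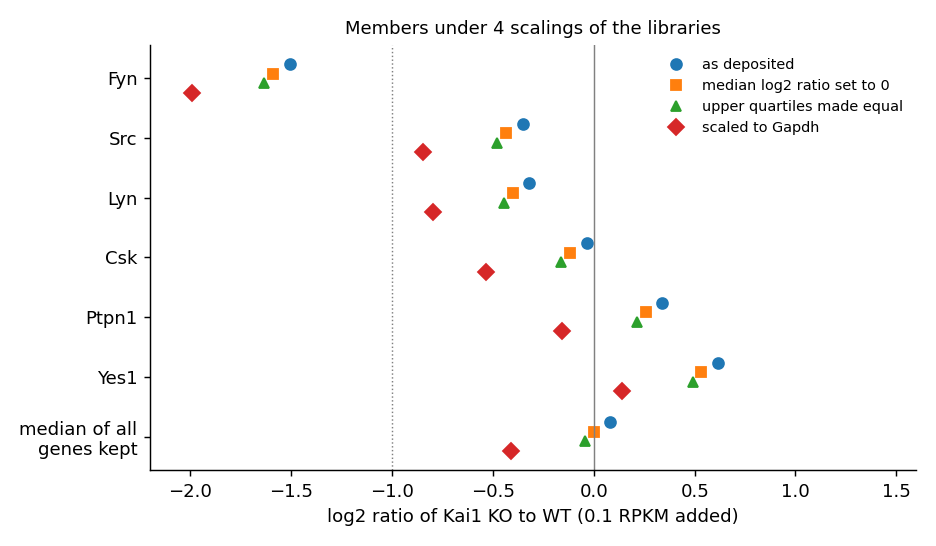
Log2 ratio of Kai1 KO to WT for the 6 members that passed the filter and for the median of all genes kept, under 4 scalings of the libraries. Symbols mark the scaling. Fyn lies between -1.51 and -1.99, left of the dotted 2-fold line, in all 4, while Ptpn1 crosses 0 when scaled to Gapdh.

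RNA of other cell types was low for T cells and differed between the libraries for myeloid cells. The 9 T cell markers, T cells being a known source of Fyn and Lck, summed to an RPKM of 0.116 in WT and 0.140 in Kai1 KO, of which Cd3d held 0.000295 and 0.133, or about 0 and 4 reads. Ptprc, the marker with the next highest mean, was at 0.0407 and 0.00697, and Cd3e, Cd3g, Cd2 and Cd5 were listed at 0 in both. The 12 macrophage and myeloid markers, which bear on Lyn and Fgr, summed to 41.0 in WT and 19.5 in Kai1 KO. Of the 5 that passed the filter, Csf1r, Lyz2, Tyrobp and Fcer1g were more than 2-fold lower and Cd14 was more than 2-fold higher. Of all genes kept, 7.81% were lower and 7.98% higher. Without the filter 7 of the 12 were more than 2-fold lower and 1 higher, beside 9.29% and 5.96% of all symbols. The lower ones then also included Cd68 (1.17 in WT, 0.464 in Kai1 KO), Laptm5 (0.661, 0.119) and Spi1 (0.179, 0.0331). Itgam, Ptprc and Mpeg1 were below 0.1 in both libraries, and Emr1 was listed at 0. The 6 endothelial markers summed to 0.990 in WT, with Pecam1 at 0.413 and Tek at 0.409, and all 6 were listed at 0 in Kai1 KO. The part of these cell types in the levels of the members was not tested, and in bulk RNA fewer cells of a type and less RNA per cell cannot be told apart.

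The wider circle of Src signalling was described from lists that were chosen with earlier results of these data known. Among 20 substrates and partners, 19 passed the filter, of which 2 were more than 2-fold lower in Kai1 KO and 0 higher, beside 7.81% and 7.98% of all genes kept, so that the count was near the background. Efs, an adaptor named as a substrate associated with Fyn, had an RPKM of 20.8 in WT and 0.577 in Kai1 KO, 2.78% of WT (2.08% to 3.67%), from about 2065 and 52 reads. Its log2 ratio was -4.95, and 0.189% of the genes kept had a lower one. The adaptors Bcar1 and Nedd9 of the same family, named here after their values were seen, did not share this. Bcar1 had an RPKM of 40.4 in WT and 35.3 in Kai1 KO, and Nedd9 of 3.70 and 4.56. Afap1, an actin filament protein that binds Src, was at 17.4 in WT and 7.80 in Kai1 KO, 44.9% of WT (42.1% to 47.9%). The most abundant of the list were Anxa2, a membrane-binding protein (3009 in WT, 3578 in Kai1 KO), and Cttn, an actin regulator (92.5, 97.9). Over the 19 genes the median log2 ratio was -0.17, against 0.08 for all genes kept.

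Of 10 tyrosine phosphatases that act on Src kinases, 5 passed the filter and 0 were past 2-fold. Of all genes kept, 7.81% were lower and 7.98% higher, so a count of 0 in a list this short is near the background. The most abundant were Ptpn11 (24.0 in WT, 26.2 in Kai1 KO) and Ptpra (16.6, 15.1), which opens Src by removing the tail phosphate. Their median log2 ratio was 0.05 over the 5. Of 8 genes for lipid attachment, folding and turnover of the kinases, 7 passed the filter and 0 were past 2-fold, with a median of -0.13. This count too is near the background. Cdc37, a co-chaperone of kinases, had an RPKM of 194 in WT and 203 in Kai1 KO, and Nmt1, which attaches the first lipid, of 178 and 148.

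Of 7 genes for the Csk homologue Matk and for proteins that bind Csk, 3 passed the filter and 0 of these were past 2-fold. Of all genes kept, 7.81% were lower and 7.98% higher, so this count is near the background. Cav1, the coat protein of caveolae, had an RPKM of 60.0 in WT and 46.0 in Kai1 KO, and the adaptor Dok1 of 25.4 and 28.0. Dok2, named here after its values were seen, is an adaptor of blood cells and was at 0.869 in WT and 0.123 in Kai1 KO, from about 41 and 5 reads.

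The 4 other Src-type kinases described had mean RPKM values below 1. Frk, the most abundant, was at 1.26 in WT and 0.219 in Kai1 KO, 17.4% of WT (11.2% to 26.3%), from about 171 and 27 reads. Ptk6 was at 0.205 and 0.402, and Blk and Srms were listed at 0 in both libraries. Without a filter on the mean RPKM, 1 of these 4 genes, Frk, was more than 2-fold lower, against 9.29% of all symbols.

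**Figure D5:**
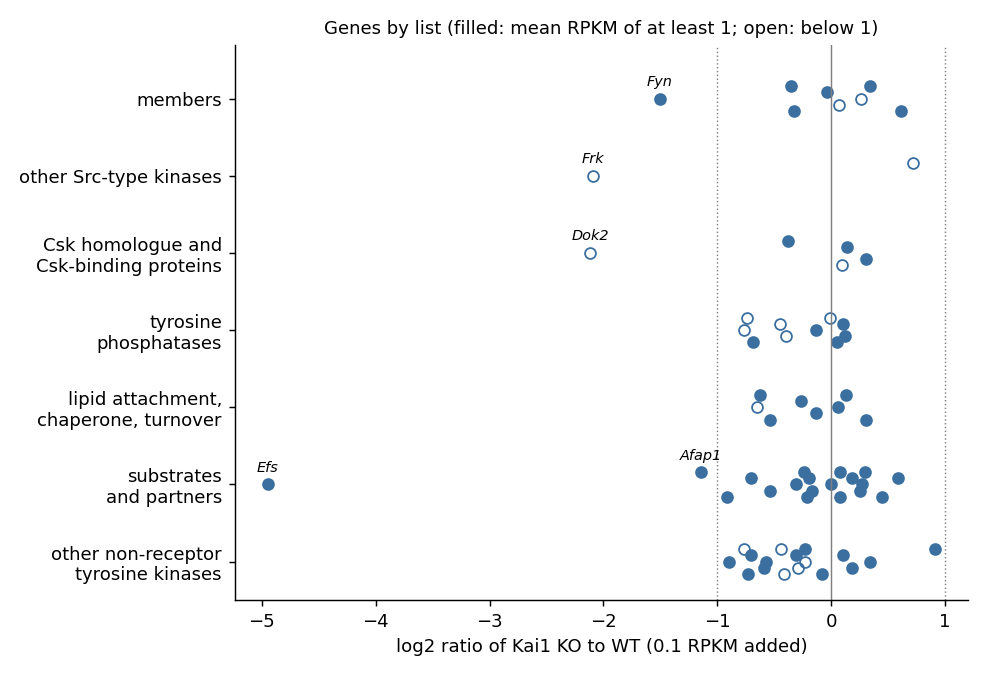
Log2 ratio of Kai1 KO to WT for each gene of the 9 members and of 6 lists of related genes. Filled points passed the filter on the mean RPKM, open points did not, and genes listed at 0 in both libraries are not drawn. Genes past the dotted 2-fold lines are named, and Efs, at -4.95, lies farthest from 0. The rightmost open point among the members is Lck, whose place rests on 1 read in Kai1 KO and the added 0.1 and is no measure of a fold change.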

How the data were processed

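RNA was sequenced from 1 WT and 1 Kai1 KO library of PVCs. Alignment by the authors was to mm9, with Bowtie 0.12.9 called from TopHat 2.0.9, segments of 21 bases and up to 2 mismatches. The authors deposited 1 RPKM value per row and library, with 153 symbols on more than 1 row. The rows are fewer than the RefSeq genes that the paper says were measured. The submitters' processing notes also name Cufflinks, and its version, the library strandedness and the read totals are not given in the sources used here.

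From the deposited values, 38 of 20462 rows without a symbol were dropped and repeated symbols averaged. Log2 ratios used a pseudocount of 0.1 RPKM, which understates differences of low genes, and the filter kept genes averaging 1 RPKM or more. With 1 library per genotype no test was run. Reads were estimated by fitting low RPKM values of genes with 1 annotated transcript longer than 800 bases (GENCODE M1) to whole reads, with a fragment length of 190 bases. Of the values below about 5 reads, 82.4% (WT) and 77.5% (Kai1 KO) were whole to within 0.15 reads. The longest transcript served as gene length, so the reads per gene are approximate. Intervals of the Kai1 KO level relative to WT are exact binomial, those of levels exact Poisson, and those of sums and ratios between genes normal approximations. The code was tested on simulated data. Some genes of the wider lists are not reported here. The members and lists were chosen with earlier results of these data known. All members were named, as were the genes past 2-fold after the filter and the 2 most abundant genes of each list, and Cd82 and Gapdh. Further genes were named after their values were seen. Alternatives were pseudocounts of 1 and 0.01, 3 other scalings, other filters and summed symbols. Python 3.11.15, numpy 2.4.6, pandas 2.3.3, scipy 1.17.1 and matplotlib 3.10.9 were used.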

Additional observations from a re-analysis of the deposited data

How the results depend on the processing

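Of 42 recomputed log2 ratios of the 7 members above 0 in both libraries, 31 counted as unmoved and 11 as moved. The limit was the log2 distance from the middle of a member's counting interval to its end. Summing repeated symbols could not move any of these ratios, since each member stands on 1 row. For Pag1 the limit was wide, and none of its ratios counted as moved. Fyn was past 2-fold under every alternative. The 2 ratios that changed sign were those of Ptpn1 and Pag1, both scaled to Gapdh. The log2 ratio of the summed kinases, -0.65 as reported, was -0.77 with the upper quartiles made equal, -1.14 scaled to Gapdh and -0.23 without Fyn. The log2 ratio of Csk to the summed kinases, 0.61 as reported, was 0.19 without Fyn. Leaving out Fyn was chosen after seeing the data, as was the median over members above 0. With a pseudocount of 0.01 RPKM, 1 member passed the 2-fold line upwards, which was Lck, whose 1 read in Kai1 KO against 0 in WT is no measure of a fold change. Over all genes, 1878 were lower and 1205 higher without the filter, 350 and 511 when the mean RPKM had to reach 5, and 1856 and 278 scaled to Gapdh, against 786 and 803 as reported. No paired analysis was possible because a single library stands for each genotype, and none could be left out. Depth limits Pag1, Lck and Fgr, with at most about 20 reads per library.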

Other observations

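The other non-receptor tyrosine kinases give a frame for the Src family levels. Of 18 such genes listed, 17 were found and Fer was not analysed here. Of the 17, 12 passed the filter on the mean RPKM, and 0 of these were past 2-fold, with a median log2 ratio of -0.27 against 0.08 for all genes kept. Past this line were 7.81% of all genes kept downwards and 7.98% upwards, so a count of 0 in a list of 12 is near the background. The most abundant were Tnk2 (36.9 in WT, 29.9 in Kai1 KO) and Jak1, the kinase of cytokine receptors that include the receptor of LIF (32.1, 17.2). Jak1 in Kai1 KO was at 53.6% of WT (50.9% to 56.5%). Named after their values were seen, Ptk2, the focal adhesion kinase to which Src binds, was at 17.9 and 11.0, and Syk, a kinase best known from blood cells, at 8.30 and 15.7, the highest log2 ratio of these genes at 0.91. Summed over the 17 genes the RPKM was 144 in WT and 116 in Kai1 KO, set beside 28.0 and 17.8 for the 6 Src family kinases.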
